A study of Homo sapiens with 12 samples.

Results

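The 38 genes described here build the lysosome and control its making. They are 3 MiT/TFE transcription factors, 6 lysosomal membrane proteins and channels, 9 cathepsins and other proteases, 6 glycosidases, 5 genes of lipid handling and 9 genes of the V-ATPase, the proton pump of the lysosome. They were chosen by symbol, from what is known of their function, with earlier results of these data known. They make up 38 of the 58735 genes in the files. All 38 passed the filter on low counts in each of the 5 comparisons.

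The measurements are RNA sequencing of 12 libraries from HLE-B3, a human cell line that was derived from the epithelium of the lens and immortalized. The 4 groups held 3 biological replicates each: WT cells untreated (WT_0h), WT cells exposed to 200 μM H2O2 for 12 h (WT_12h), Atg7KO cells untreated (Atg7KO_0h), and Atg7KO cells exposed to 200 μM H2O2 for 12 h (Atg7KO_12h). Atg7KO cells carry a CRISPR/Cas9 knockout of ATG7, which encodes the E1-like enzyme needed to form autophagosomes. The knockout was made by picking individual clones, and which of them were sequenced is not stated, so the knockout and traits of a clone cannot be told apart. Untreated cells were collected at 0 h, so the effects of H2O2 and of 12 h in culture cannot be told apart either. The comparisons ask how the lysosomal genes respond to H2O2, how that differs without ATG7, and how the 2 cell lines differ before and after H2O2.

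Lysosomes break down proteins, glycans and lipids with hydrolases that work at acid pH, and the V-ATPase pumps in the protons that keep their lumen acid. Autophagosomes deliver their cargo by fusing with lysosomes, and the MiT/TFE factors bind a short DNA motif, the CLEAR element, near the starts of many lysosomal genes. In the lens, organelles are cleared as fibre cells mature, and Fabry disease, in which the lysosomal enzyme GLA is missing, can come with lens opacities.

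Total counts per library ran from 15602183 to 17659496. Levels are given as FPKM, in which the fragments of a gene are scaled to its length and to the library's total so that genes can be compared with each other, and every test was run on counts. Values of 3 libraries are listed in the order of replicates 1 to 3. Log2 fold changes are given for Atg7KO over WT or for H2O2 over untreated.

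The library Atg7KO_0h replicate 1 stood apart from the rest. Its FPKM values summed to 297685, against 240552 to 265936 in the other 11 libraries. Its mean Pearson correlation with its group, across 16856 genes on the log2 scale, was 0.974, against 0.983 for each of its group mates and a lowest value of 0.991 in the other groups. Across genes, which are not independent replicates, its difference from its group mates ran with gene length, with a Spearman rho of -0.355. The 38 members summed to 1706 FPKM in it, against 1365 and 1330 in its group mates. Of the 19 members shorter than the median length of 4897 bases, 17 were higher in it than in the mean of its group mates, and of the 19 longer members 11 were higher. CD63 was 0.74 higher on the log2 scale, NPC2 0.72 and ATP6V1D 0.69, while NPC1 was lower at -0.65 and ATP6V0A1 at -0.56. Calls that rest on untreated Atg7KO cells are given with and without this library, group means include it where nothing else is said, and what set it apart was not tested.

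ATG7, the targeted gene, had 2.81, 2.64 and 2.21 FPKM in untreated WT cells, 1.99, 1.91 and 1.97 in treated WT cells, 3.78, 3.42 and 3.43 in untreated Atg7KO cells and 2.11, 2.12 and 2.35 in treated Atg7KO cells. The untreated Atg7KO libraries were all above the untreated WT libraries, and the treated Atg7KO libraries all above the treated WT libraries. Neither difference passed the test (untreated log2 0.47, adjusted p = 0.035; treated log2 0.15, adjusted p = 0.14), although the untreated difference was called with DESeq2, with all 12 libraries in a single fit, and without Atg7KO_0h replicate 1 (0.43). A count per gene does not show an edit, and ATG7 RNA was not lower in Atg7KO cells, so ATG7 is no check on the knockout labels here. With H2O2, ATG7 RNA fell in WT cells (log2 -0.39, adjusted p = 3.7e-04, all 3 treated libraries below all 3 untreated) and in Atg7KO cells (log2 -0.70, adjusted p = 0.0015, again with no overlap; -0.66 and still called without Atg7KO_0h replicate 1). The WT call was lost with limma at both pseudocounts and with a correction for gene length (-0.18), and the Atg7KO call without Atg7KO_12h replicate 1 (-0.67) or replicate 2 (-0.67).

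The cell type was checked against marker genes. Of 10 genes typical of lens epithelium, 5 reached a mean of 1 FPKM in a group: CDH2, the most abundant, at 163 FPKM in untreated WT cells, GJA1 at 26.1, SIX3 at 3.06, PAX6 at 1.27 and, in treated WT cells, CRYAB at 1.65. Of the others, FOXE3 and CRYAA, which define the tissue in the body, had group means of 0.0516 FPKM or less and were 0 in untreated Atg7KO cells, and AQP1, AQP5 and MAF had group means under 0.1 FPKM. The lens epithelium list summed to 199.7, 189 and 191 FPKM in untreated WT cells, 145, 147 and 151 in treated WT cells, 179.6, 208 and 211 in untreated Atg7KO cells and 159, 166 and 167 in treated Atg7KO cells. The sum was lower in all treated libraries of a line than in all its untreated ones. That is the direction of CDH2, whose group mean went from 163 to 99.0 FPKM in WT cells and from 172 to 109 in Atg7KO cells. GJA1 went the other way (26.1 to 43.5 and 23.9 to 50.5 FPKM), as did CRYAB (0.172 to 1.65 and 0.0119 to 0.940 FPKM). Of 9 lens fibre genes, 1 reached 1 FPKM (CRYGS, 2.11 FPKM in untreated WT cells), LIM2 was 0 in every library, and the list summed to 2.52, 2.67 and 2.47, then 2.61, 2.24 and 2.98, 2.61, 2.30 and 1.60 and 2.01, 1.38 and 2.08 FPKM in the same order of groups. Of 8 fibroblast genes, 5 reached 1 FPKM, led by COL1A1 at 626 FPKM in untreated WT cells, while COL3A1 and DCN stayed under 0.1. That list summed to 656, 681 and 649 FPKM in untreated WT cells, 308, 296 and 292 in treated WT cells, 388, 536 and 524 in untreated Atg7KO cells and 264, 274 and 269 in treated Atg7KO cells, lower in every treated library than in every untreated library. LUM, a proteoglycan gene of that list, was at 0.168 FPKM in untreated WT cells and 9.52 in untreated Atg7KO cells. The part of these lists in the results on lysosomal genes was not tested.

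The members spanned a wide range of levels. In untreated WT cells the highest, as mean ± SD of 3 libraries, was PSAP, the precursor of the saposins that help break down sphingolipids, at 218 ± 3.32 FPKM. Then came LAMP1, a heavily glycosylated protein that lines the lysosomal membrane, at 118 ± 1.85, the tetraspanin CD63 at 106 ± 5.47, and the cysteine proteases CTSZ at 98.0 ± 1.79 and CTSB at 93.4 ± 0.776. None of these 5 overlapped the next gene in the order. The lowest were HEXA, a subunit of beta-hexosaminidase, at 2.21 ± 0.160 FPKM, the proteases CTSK at 1.71 ± 0.694 and CTSS at 0.892 ± 0.0392, and the factors TFEB at 1.56 ± 0.0726 and MITF at 1.51 ± 0.0830. HEXA, CTSK, TFEB and MITF each overlapped the next gene in the order or the gene before it, and CTSS lay under all the others. In the same cells 37 members had a mean over 1 FPKM, 28 over 10 and 3 over 100, and their median of 15.9 FPKM compares with 6.57 for all 12432 genes over 1 FPKM. The members took 0.563 ± 0.00355% of all counts in untreated WT cells, 0.519 ± 0.00676% in treated WT cells, 0.636 ± 0.0377% in untreated Atg7KO cells and 0.575 ± 0.00548% in treated Atg7KO cells. The wide SD of untreated Atg7KO cells goes with replicate 1, at 0.680%, against 0.617 and 0.612% for its group mates. The plot of levels by group shows how far the groups of each member lie apart on the same scale.

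**Figure D1:**
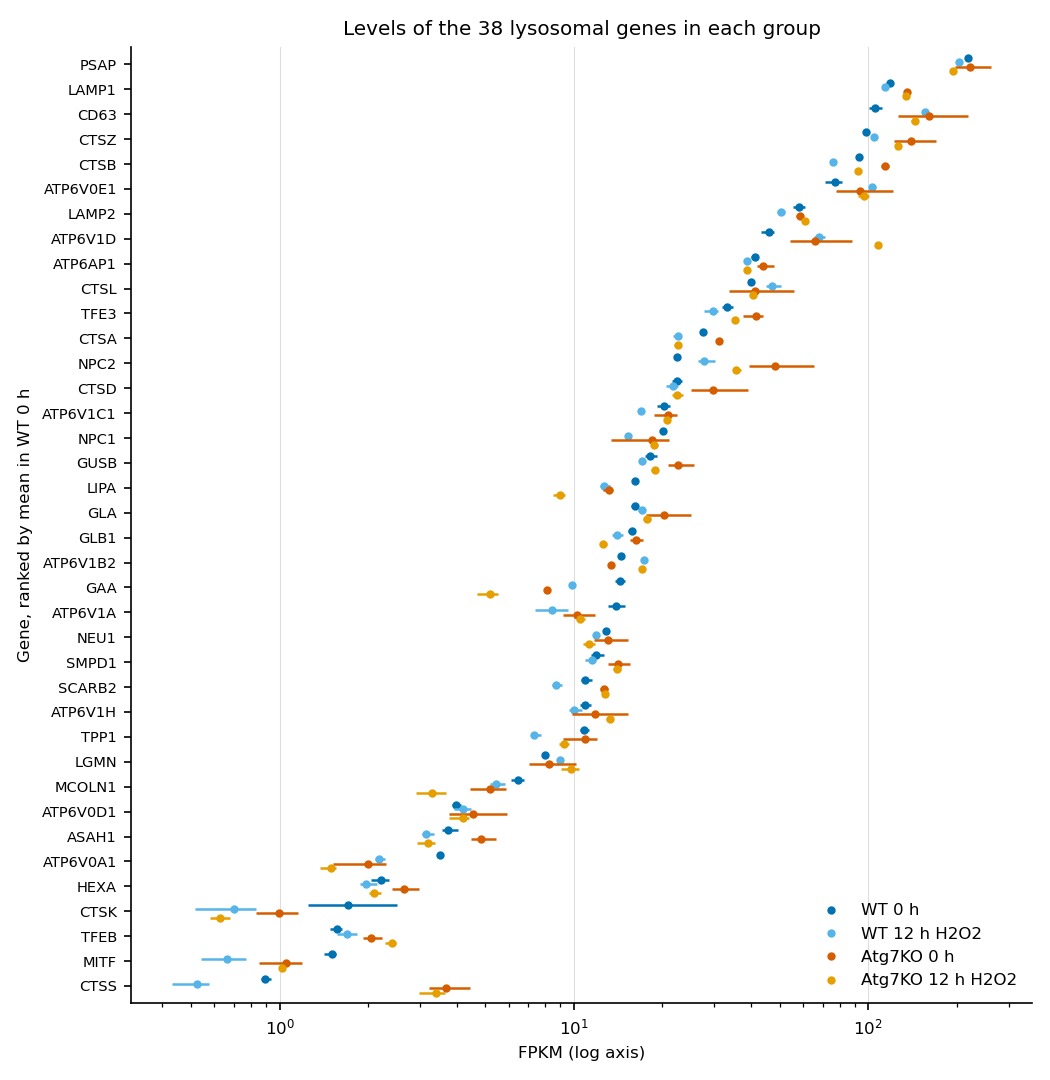
Level of each of the 38 members in FPKM (log axis), ranked by the mean in untreated WT cells, with a point for the group mean and a line from the lowest to the highest of 3 libraries in each of the 4 groups. CTSS stands at 0.892 FPKM in untreated WT cells and 3.67 in untreated Atg7KO cells, and GAA and LIPA are lowest in treated Atg7KO cells.

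A gene was called when its adjusted p was under 0.01 in an edgeR test, with p-values adjusted over all genes tested. A stricter rule also asked for a log2 fold change beyond 1 in either direction and a mean over 1 FPKM in a group. In bulk RNA, fewer cells of a type and less RNA per cell cannot be told apart. The comparisons share groups, so their counts are not independent of each other.

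With H2O2, 6 members rose and 18 fell in WT cells, and 14 did not pass the test. Of all 15913 genes tested, 30.9% rose and 30.1% fell, so the count of members that rose lies below that share and the count that fell above it; no test of the list was run. With all 12 libraries in a single fit 3 rose and 11 fell, beside 20.7 and 19.8%. The calls lost there were those of CTSL, NPC2 and ATP6V0E1 as higher and of TFE3, MCOLN1, LAMP2, NPC1, GLB1, ASAH1 and ATP6V1C1 as lower. The stricter rule was met by 2 members, MITF and CTSK, beside 12.5% of all genes. The median log2 fold change of the members was -0.14, against -0.01 for all genes, and 11 of the 38 were above 0.

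In Atg7KO cells, 4 members fell with H2O2 and edgeR called 0 as higher, beside 12.4% lower and 13.6% higher among 15475 genes. At an unadjusted p under 0.05, 2 were higher and 13 lower, beside 25.2 and 26.2% of all genes. DESeq2 called 2 higher and 7 lower, beside 18.7 and 17.0%, and limma 0 higher and 4 lower, beside 13.8 and 11.2%. The stricter rule took 0 members, beside 11.2% of all genes, as no called member moved by a log2 of 1. The members' median was -0.17, against -0.03 for all genes. Without Atg7KO_0h replicate 1, edgeR called 7 members higher and 16 lower, beside 29.8 and 28.6% of 16002 genes, and the median was -0.08. The 4 calls made with that library were kept, 19 were added, and 9 members changed sign. The count of higher members then lies below the share for all genes and the count of lower members above it; no test of the list was run.

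Between untreated cells, 2 members were higher and 1 lower in Atg7KO cells, beside 4.42% higher and 3.28% lower among 15357 genes. The 2 higher members, CTSS and NPC2, also met the stricter rule, beside 3.50% of all genes, and NPC2 no longer met it without Atg7KO_0h replicate 1 (0.83). The members' median was 0.15, against 0.01 for all genes, and 29 of 38 were above 0. Without Atg7KO_0h replicate 1, 13 were higher and 6 lower, beside 18.2 and 17.9% of 15848 genes, and the median was 0.06. The 3 calls were kept, 16 were added, and 8 members changed sign.

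Between treated cells, 17 members were higher and 7 lower in Atg7KO cells, beside 27.7% higher and 27.9% lower among 15909 genes. With all 12 libraries in a single fit these came to 8 higher and 4 lower, beside 14.0 and 15.0% of all genes. The 9 higher calls lost there were TFE3, LAMP1, NPC1, CTSZ, TPP1, NPC2, SMPD1, ATP6V1A and ATP6V1H, and the 3 lower ones CD63, CTSL and GLB1. Only CTSS met the stricter rule, beside 7.46% of all genes. The members' median was 0.10, against 0.00 for all genes, with 23 of 38 above 0. The difference between the H2O2 responses, Atg7KO minus WT, was called above 0 for 2 members, MITF and ATP6V1A, beside 7.02% above and 7.01% below among 16856 genes. MITF met the stricter rule, beside 5.17% of all genes. edgeR called 0 members below 0, where 4 had an unadjusted p under 0.05 (beside 22.3% of all genes), DESeq2 called 1 (beside 11.3%) and limma 0 (beside 8.06%). Without Atg7KO_0h replicate 1, 9 were above and 3 below, beside 17.8 and 16.3% of 17543 genes, with the same 2 members among them. The heat map of log2 fold changes lays the 5 comparisons of each member side by side.

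**Figure D2:**
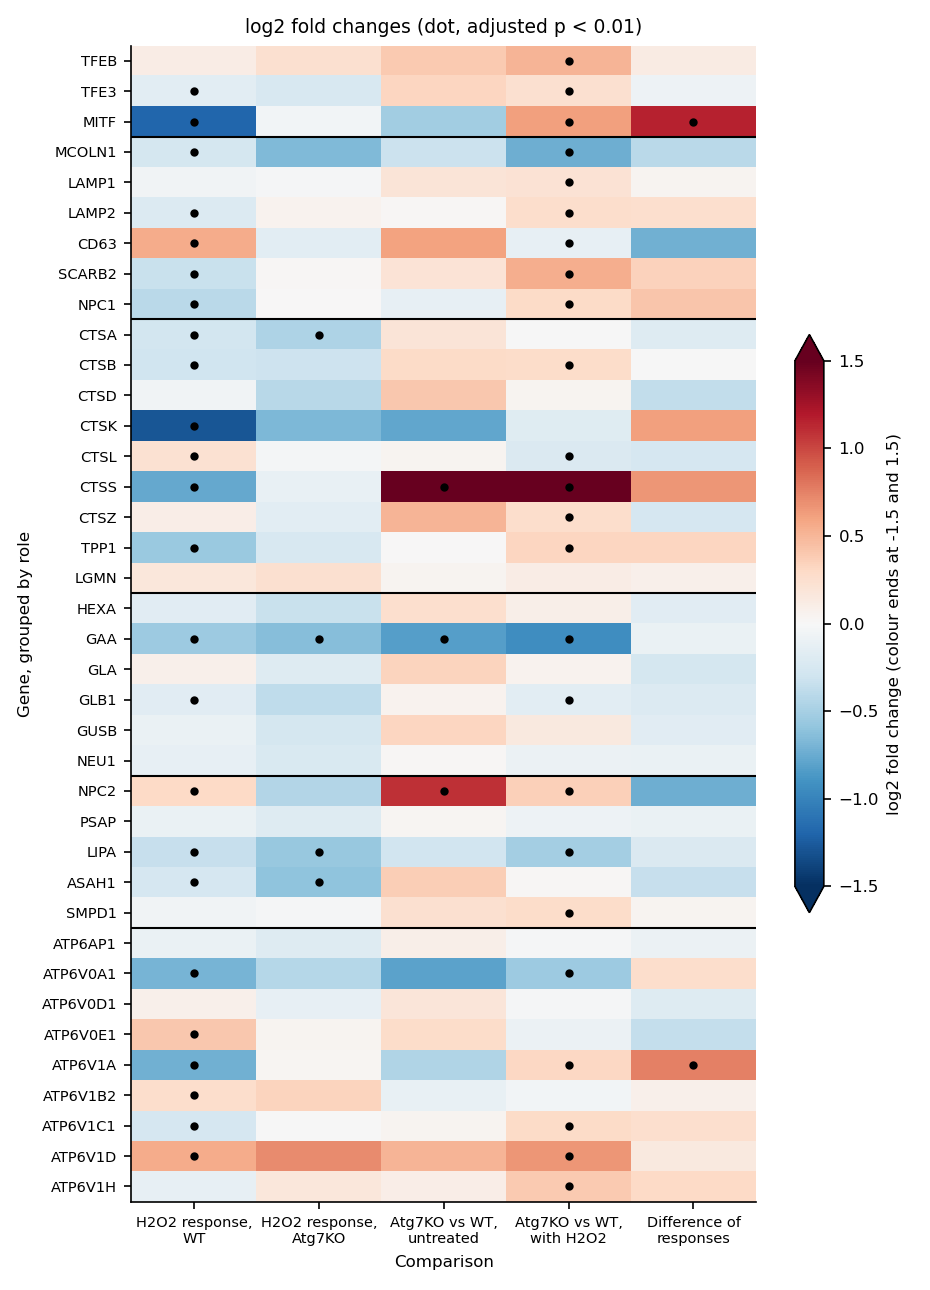
Log2 fold change (colour) of the 38 members, grouped by role, in each of 5 comparisons, with a dot where the adjusted p was under 0.01 and colours ending at -1.5 and 1.5. Treated WT cells against untreated show 24 dots, 18 of them lower (11 in a single fit of all 12 libraries), and treated Atg7KO against treated WT cells show 24, 17 of them higher (8 in that fit).

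Of the MiT/TFE factors, MITF fell with H2O2 in WT cells and differed between the lines in its response. MITF, best known as the factor that sets the identity of pigment cells, had 1.56, 1.55 and 1.41 FPKM in untreated WT cells, 0.542, 0.669 and 0.769 in treated WT cells, 0.853, 1.10 and 1.19 in untreated Atg7KO cells and 1.0004, 1.03 and 1.04 in treated Atg7KO cells. The untreated WT libraries were the highest and the treated WT libraries the lowest, with no overlap with any other group, while the 2 Atg7KO groups overlapped. It was 2.29-fold lower with H2O2 in WT cells (log2 -1.19, SE 0.14, adjusted p = 4.4e-10) and at log2 -0.05 in Atg7KO cells (adjusted p = 0.84). The responses differed by 1.15 (SE 0.22, adjusted p = 0.0023; 1.03 and still called without Atg7KO_0h replicate 1). Against WT cells, MITF stood at log2 -0.52 in untreated Atg7KO cells (adjusted p = 0.063, not passed; -0.39 without replicate 1) and was higher in treated ones (log2 0.62, SE 0.15, adjusted p = 7.9e-04). That last call was lost without WT_12h replicate 1 (0.49) and with limma on log2(FPKM + 0.1), and the Atg7KO response turned to 0.056 without Atg7KO_0h replicate 3. MITF rested on few reads, 66 to 205 counts per library, and with limma on log2(FPKM + 1) its called values came to -0.60 in the WT response, 0.58 for the difference between responses and 0.29 between treated cells. Of 6 pigment cell markers, none reached 1 FPKM in a group mean. TYRP1 was the most abundant in WT cells, at 0.400 FPKM untreated and 0.697 treated. The highest was MLANA in untreated Atg7KO cells (0.269, TYRP1 at 0.259) and PMEL in treated ones (0.322, TYRP1 at 0.105). TYR was 0 outside untreated Atg7KO cells, where it stayed under 0.1. That list summed to 0.650, 1.17 and 0.905 FPKM in untreated WT cells, 1.36, 1.27 and 1.40 in treated WT cells, 0.389, 1.02 and 1.09 in untreated Atg7KO cells and 0.735, 0.853 and 0.742 in treated Atg7KO cells. Its part in the MITF result was not tested.

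TFEB, the best studied driver of lysosomal genes, had 1.48, 1.63 and 1.58 FPKM in untreated WT cells, 1.68, 1.83 and 1.56 in treated WT cells, 2.23, 1.997 and 1.92 in untreated Atg7KO cells and 2.49, 2.48 and 2.29 in treated Atg7KO cells. Every Atg7KO library was above every WT library, and the 2 WT groups overlapped. TFEB was higher in treated Atg7KO than treated WT cells (log2 0.51, SE 0.11, adjusted p = 1.8e-04); the untreated difference did not pass (log2 0.39, adjusted p = 0.067), and nor did either response (WT 0.11, Atg7KO 0.23). The untreated difference was 0.33 and the Atg7KO response 0.29 without Atg7KO_0h replicate 1, neither called. TFE3, its close relative, had the highest level of the 3, with 31.9, 32.4 and 34.8 FPKM in untreated WT cells, 30.9, 30.3 and 27.7 in treated WT cells, 37.4, 43.9 and 43.0 in untreated Atg7KO cells and 34.8, 34.7 and 36.2 in treated Atg7KO cells. Untreated Atg7KO libraries were above untreated WT libraries, and treated WT libraries were the lowest, with no overlap. TFE3 was higher in treated Atg7KO than treated WT cells (log2 0.24, adjusted p = 1.7e-05), a call lost with all 12 libraries in a single fit. In untreated cells it stood at 0.33 (adjusted p = 0.069) and was called with all 12 libraries in a single fit and without Atg7KO_0h replicate 1 (0.40). Its fall in WT cells was slight (log2 -0.16, adjusted p = 0.0035) and was lost under 8 of the alternatives, among them leaving out WT_0h replicate 3 (-0.14) or WT_12h replicate 3 (-0.12). In Atg7KO cells its response of -0.24 (adjusted p = 0.086) was called only without Atg7KO_0h replicate 1 (-0.32).

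Among the membrane proteins, MCOLN1 had its lowest level in treated Atg7KO cells. MCOLN1 encodes the lysosomal cation channel TRPML1, which releases calcium from the lysosome. It had 6.11, 6.51 and 6.79 FPKM in untreated WT cells, 5.84, 5.19 and 5.25 in treated WT cells, 4.44, 5.87 and 5.26 in untreated Atg7KO cells and 3.69, 3.29 and 2.90 in treated Atg7KO cells. All treated Atg7KO libraries were below all others, and untreated Atg7KO libraries were below untreated WT libraries. MCOLN1 was lower in treated Atg7KO than treated WT cells (log2 -0.73, SE 0.10, adjusted p = 1.6e-07). With H2O2 it fell slightly in WT cells (log2 -0.26, adjusted p = 0.0064), a call lost with DESeq2, limma, a stricter count filter and a single fit of all 12 libraries, and without WT_0h replicate 2 (-0.26) or 3 (-0.24) or WT_12h replicate 2 (-0.23) or 3 (-0.24). In Atg7KO cells it stood at -0.66 (adjusted p = 0.012, not passed), and was called with DESeq2, upper quartile scaling, no count filter, a single fit of all 12 libraries, and without Atg7KO_0h replicate 1 (-0.77). The untreated difference of -0.32 did not pass (adjusted p = 0.14; -0.21 and not called without replicate 1).

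The promoter of MCOLN1 holds the core of the CLEAR element, and since the MiT/TFE factors are members, the promoters were searched for it. A RefSeq table (GRCh38.p14) held promoters for 25 of the 38 members, each from 250 bases before to 50 bases after a start. The 6-base E-box CACGTG was present for 8 of the 25, or 32%, against 8.77% of 27305 gene symbols and 7.26% of 35116 promoters. The 8-base core TCACGTGA, which contains the E-box, was present for 5 of 25, or 20%, against 1.18% of symbols and 0.98% of promoters. Both motifs read the same on either strand. The 5 genes with the 8-base core are MCOLN1, LAMP1, the carboxypeptidase CTSA, the glycogen-degrading enzyme GAA and the V-ATPase subunit gene ATP6V0D1, and CD63, CTSD and NEU1 hold only the E-box. The windows of 30 bases are shown because these genes hold the same core and their values between treated cells lay on both sides of 0, and capitals mark TCACGTGA. They lie at chr19:7522571-7522600 and chr19:7522598-7522627 (MCOLN1), chr13:113297199-113297228 and chr13:113297226-113297255 (LAMP1), chr20:45891298-45891327 (CTSA), chr17:80101493-80101522 and chr17:80101538-80101567 (GAA), all on the + strand, and chr16:67481199-67481228 on the - strand (ATP6V0D1).
MCOLN1 a: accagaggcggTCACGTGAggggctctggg
MCOLN1 b: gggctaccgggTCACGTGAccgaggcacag
LAMP1 a: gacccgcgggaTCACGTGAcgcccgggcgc
LAMP1 b: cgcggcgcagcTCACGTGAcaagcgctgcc
CTSA: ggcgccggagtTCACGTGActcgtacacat
GAA a: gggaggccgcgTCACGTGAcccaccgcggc
GAA b: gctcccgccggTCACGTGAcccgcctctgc
ATP6V0D1: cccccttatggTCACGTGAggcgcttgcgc
The letters a and b mark the copies upstream and downstream in the same promoter. Between treated cells these 5 genes stood at log2 -0.73 (MCOLN1), 0.22 (LAMP1), -0.01 (CTSA), -0.94 (GAA) and -0.01 (ATP6V0D1), where MCOLN1 and GAA were called as lower, LAMP1 as higher, and CTSA and ATP6V0D1 did not pass. A match is a description of letters, not a bound site or a cause, and a promoter without a match says nothing about the factors.

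CD63, a tetraspanin of late endosomes and lysosomes, was the membrane protein that rose with H2O2 in WT cells. It had 100.5, 105 and 111 FPKM in untreated WT cells, 154, 159 and 155 in treated WT cells, 219, 137 and 126 in untreated Atg7KO cells and 145, 148 and 139 in treated Atg7KO cells. Untreated WT libraries were the lowest, and the 2 Atg7KO groups overlapped through replicate 1, which was far above its group mates. CD63 rose in WT cells (log2 0.56, SE 0.04, adjusted p = 6.7e-16) and stood at -0.16 in Atg7KO cells (adjusted p = 0.56; 0.12 and called as higher without replicate 1, a change of sign). The difference between responses was -0.72 (adjusted p = 0.028, not passed), and -0.42 and called without replicate 1. SCARB2, which carries beta-glucocerebrosidase to the lysosome, had 11.5, 10.7 and 10.6 FPKM in untreated WT cells, 8.55, 8.45 and 9.11 in treated WT cells, 12.3, 12.5 and 13.1 in untreated Atg7KO cells and 12.8, 12.9 and 12.7 in treated Atg7KO cells. Treated WT libraries were the lowest and all Atg7KO libraries the highest. SCARB2 was higher in treated Atg7KO than treated WT cells (log2 0.55, SE 0.04, adjusted p = 9.2e-14), and 0.26 and still called with a correction for gene length. In all, 4 of the 6 membrane proteins fell with H2O2 in WT cells (NPC1 -0.40, SCARB2 -0.33, MCOLN1 -0.26 and LAMP2 -0.20), beside 30.1% of all genes, while LAMP1 did not pass (-0.05). Between treated cells, beside 27.7% higher and 27.9% lower among all genes, 4 were higher in Atg7KO cells, namely SCARB2, the cholesterol exporter NPC1 (0.29), LAMP2 (0.26) and LAMP1 (0.22), and 2 were lower, MCOLN1 and CD63 (-0.12). Of these, NPC1, LAMP1 and CD63 were not called with all 12 libraries in a single fit, and no test of the role was run. CD63 shares 9% and NPC1 5.98% of exon bases with other genes.

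Among the proteases, CTSS differed most between the lines, both untreated and treated. It encodes cathepsin S, a cysteine protease best known from the antigen-presenting cells of the immune system. CTSS had 0.936, 0.861 and 0.879 FPKM in untreated WT cells, 0.432, 0.568 and 0.578 in treated WT cells, 4.43, 3.21 and 3.36 in untreated Atg7KO cells and 3.62, 2.97 and 3.64 in treated Atg7KO cells. Every Atg7KO library was above every WT library, and treated WT libraries were below untreated WT libraries. CTSS was 4.10-fold higher in untreated Atg7KO cells (log2 2.03, SE 0.16, adjusted p = 4.4e-04; log2 1.89 and still called without Atg7KO_0h replicate 1). In treated cells it was 6.44-fold higher (log2 2.69, SE 0.15, adjusted p = 5.7e-16). With H2O2 it fell in WT cells (log2 -0.77, SE 0.22, adjusted p = 0.0023), a call lost without WT_12h replicate 1 (-0.65), and it stood at -0.11 in Atg7KO cells (adjusted p = 0.61; 0.04 and not called without Atg7KO_0h replicate 1). The responses differed by 0.66 (adjusted p = 0.051, not passed), and by 0.82, called, without replicate 1. CTSS had 31 to 309 counts per library, and on log2(FPKM + 1) with limma the called values came to 1.29 between untreated cells, 1.53 between treated cells and -0.31 in the WT response. Of 8 macrophage markers, 2 reached 1 FPKM in a group mean, CD14, with the highest such mean, at 1.80 FPKM in untreated Atg7KO cells and LYZ at 1.29 in untreated WT cells. PTPRC, which defines blood cells, was at 0.0891 FPKM in untreated WT cells and 0.0282 in untreated Atg7KO cells, and CD163 stayed under 0.1. Between the same groups LYZ (1.29 to 0.108), AIF1 (0.175 to 0.0305), MRC1 (0.0540 to 0.0183) and CD163 were also lower in Atg7KO cells. CD14 (0.748 to 1.80), CSF1R (0.0798 to 0.407) and ITGAM (0.0692 to 0.222) were higher. Between treated cells CSF1R (0.478 to 0.775) and PTPRC (0.0192 to 0.0296) were higher in Atg7KO cells, and the rest of the list was lower, with CD14 at 1.26 and 0.576. That list summed to 2.49, 2.85 and 2.31 FPKM in untreated WT cells, 3.46, 2.86 and 3.18 in treated WT cells, 2.99, 2.19 and 2.68 in untreated Atg7KO cells and 1.98, 1.94 and 2.34 in treated Atg7KO cells, and its part in the CTSS result was not tested.

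CTSK encodes cathepsin K, the collagen-degrading protease of osteoclasts. It had 1.25, 2.51 and 1.37 FPKM in untreated WT cells, 0.750, 0.516 and 0.832 in treated WT cells, 1.16, 0.833 and 1.002 in untreated Atg7KO cells and 0.619, 0.677 and 0.580 in treated Atg7KO cells. WT_0h replicate 2 was well above its group mates, treated WT libraries lay below all untreated WT libraries, and the 2 treated groups overlapped. CTSK was 2.44-fold lower with H2O2 in WT cells (log2 -1.29, SE 0.28, adjusted p = 8.5e-05) at only 15 to 87 counts per library. The call was lost without WT_0h replicate 2 (-0.91), and the value was -0.65 with limma on log2(FPKM + 1). In Atg7KO cells CTSK stood at -0.67 (adjusted p = 0.054; -0.56 and not called without Atg7KO_0h replicate 1), and in untreated Atg7KO against WT cells at -0.78 (adjusted p = 0.14; -0.89 and called as lower without replicate 1). Of 5 osteoclast markers, 1 reached 1 FPKM in a group mean, OSCAR at 1.98 FPKM in untreated Atg7KO cells, and CALCR, DCSTAMP and OCSTAMP were 0 in every library. That list summed to 0.983, 1.10 and 1.27 FPKM in untreated WT cells, 0.695, 0.979 and 1.22 in treated WT cells, 2.94, 1.996 and 2.50 in untreated Atg7KO cells and 0.881, 1.03 and 1.34 in treated Atg7KO cells, and its part in the CTSK result was not tested.

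CTSL, a cysteine protease with broad activity, had 40.2, 39.6 and 40.6 FPKM in untreated WT cells, 45.5, 50.7 and 45.0 in treated WT cells, 55.9, 34.4 and 33.7 in untreated Atg7KO cells and 41.2, 40.8 and 39.9 in treated Atg7KO cells. Treated WT libraries were above both the untreated WT and the treated Atg7KO libraries, and untreated Atg7KO replicate 1 was above every other library. CTSL was lower in treated Atg7KO than treated WT cells (log2 -0.22, adjusted p = 1.7e-04), a call lost with all 12 libraries in a single fit and with a correction for gene length (-0.06). CTSA, a carboxypeptidase that also shields GLB1 and NEU1 from breakdown, had 31.4, 30.7 and 31.5 FPKM in untreated and 22.9, 21.8 and 23.1 in treated Atg7KO cells. All treated libraries were below all untreated ones in both lines. It fell in Atg7KO cells (log2 -0.47, SE 0.08, adjusted p = 0.0036; -0.47 and still called without Atg7KO_0h replicate 1) and in WT cells (log2 -0.28, adjusted p = 9.1e-07), and 28.5% of its exon bases are shared with other genes. The call in Atg7KO cells was lost without a count filter, with the replicate block, and without Atg7KO_0h replicate 2 (-0.48) or 3 (-0.46) or Atg7KO_12h replicate 1 (-0.47), 2 (-0.44) or 3 (-0.48). In WT cells, 5 of the 9 proteases fell with H2O2, CTSK, CTSS, TPP1 (-0.56), CTSB (-0.30) and CTSA, and CTSL rose (0.22), beside 30.1% lower and 30.9% higher among all genes, with a median over the 9 of -0.28 and no test of the role. The tripeptidyl peptidase TPP1 and CTSB were also higher in treated Atg7KO than treated WT cells (0.33 and 0.27), as was CTSZ (0.26), and the TPP1 and CTSZ calls were lost with all 12 libraries in a single fit. TPP1 shares 14.4% of its exon bases with other genes. CTSD, the main aspartic protease, shares 52.7% of its exon bases with other genes, and neither it nor legumain, LGMN, passed in any of the 5 comparisons with all libraries. CTSD was called, without Atg7KO_0h replicate 1, as lower in the Atg7KO response (-0.19) and as higher between untreated cells (0.18), and LGMN as higher in the Atg7KO response (0.41). TPP1 (-0.35) and CTSB (-0.29) were then also called as lower in the Atg7KO response and CTSL as higher (0.24).

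Among the glycosidases, GAA was lower after H2O2 and lower in Atg7KO cells. GAA encodes acid alpha-glucosidase, which breaks down glycogen in the lysosome and is missing in Pompe disease. It had 14.9, 14.4 and 13.7 FPKM in untreated WT cells, 9.76, 9.94 and 9.91 in treated WT cells, 8.04, 8.28 and 7.90 in untreated Atg7KO cells and 5.54, 5.35 and 4.68 in treated Atg7KO cells. The 4 groups did not overlap, from untreated WT cells at the top to treated Atg7KO cells at the bottom, and untreated Atg7KO replicate 1 lay between its group mates. GAA was 1.78-fold lower in untreated Atg7KO than untreated WT cells (log2 -0.83, SE 0.09, adjusted p = 0.0011; -0.82 and still called without replicate 1) and 1.91-fold lower between treated cells (log2 -0.94, SE 0.07, adjusted p = 1.2e-13). It fell with H2O2 in WT cells (log2 -0.55, adjusted p = 9.0e-12) and in Atg7KO cells (log2 -0.64, SE 0.10, adjusted p = 0.0022; -0.65 and still called without replicate 1), and the difference between these responses was -0.10 (adjusted p = 0.53). The untreated call was lost without WT_0h replicate 1 (-0.81), 2 (-0.82) or 3 (-0.86), and the call in Atg7KO cells without Atg7KO_12h replicate 1 (-0.69), 2 (-0.66) or 3 (-0.57). Apart from GAA, the beta-galactosidase GLB1 was the glycosidase called with all libraries, at -0.17 with H2O2 in WT cells and -0.16 between treated cells. HEXA, the alpha-galactosidase GLA, the beta-glucuronidase GUSB and the sialidase NEU1 passed in none of the 5 comparisons with all libraries, with log2 fold changes from -0.34 to 0.33. With replicate 1 left out, GLB1 (-0.34), HEXA (-0.26) and GUSB (-0.18) were called as lower in the Atg7KO response, and GUSB as higher between untreated cells (0.23). HEXA shares 16.3% and GLB1 10% of exon bases with other genes.

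In lipid handling, NPC2 was higher in Atg7KO cells, and LIPA was lower between treated cells. NPC2, which binds cholesterol in the lysosome and hands it to NPC1, had 22.2, 22.9 and 22.3 FPKM in untreated WT cells, 26.3, 26.7 and 30.1 in treated WT cells, 65.3, 40.1 and 39.4 in untreated Atg7KO cells and 37.1, 35.1 and 34.8 in treated Atg7KO cells. Every Atg7KO library was above every WT library, and untreated Atg7KO replicate 1 was far above its group mates. NPC2 was 2.14-fold higher in untreated Atg7KO cells (log2 1.10, SE 0.20, adjusted p = 0.0098), and without that replicate the log2 value was 0.83 and still called. The untreated call was lost with upper quartile scaling, a stricter count filter, the replicate block and limma at both pseudocounts, and without WT_0h replicate 1 (1.09), 2 (1.12) or 3 (1.10) or Atg7KO_0h replicate 2 (1.22) or 3 (1.22). Between treated cells NPC2 was higher in Atg7KO cells (log2 0.36, adjusted p = 4.8e-07; not called with all 12 libraries in a single fit), and with H2O2 it rose in WT cells (log2 0.30, SE 0.06, adjusted p = 1.2e-05; 0.19 with a correction for gene length, and not called with all 12 libraries in a single fit). In Atg7KO cells it stood at -0.44 (adjusted p = 0.11; -0.17 and called as lower without replicate 1), and the difference between responses was -0.74 (adjusted p = 0.024; -0.46 and called without replicate 1).

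LIPA, the acid lipase that frees cholesterol and fatty acids from lipoproteins, had 16.5, 15.9 and 16.0 FPKM in untreated WT cells, 12.6, 12.3 and 13.2 in treated WT cells, 12.5, 13.5 and 13.6 in untreated Atg7KO cells and 9.09, 8.49 and 9.33 in treated Atg7KO cells. Treated Atg7KO libraries were below all others and untreated WT libraries above all others. LIPA was lower in treated Atg7KO than treated WT cells (log2 -0.51, SE 0.06, adjusted p = 3.3e-09) and fell with H2O2 in WT cells (log2 -0.35, adjusted p = 2.6e-07) and in Atg7KO cells (log2 -0.56, SE 0.09, adjusted p = 0.0027; -0.61 and still called without Atg7KO_0h replicate 1). Between untreated cells LIPA stood at -0.29 (adjusted p = 0.062, not passed). There it was called as lower with all 12 libraries in a single fit and without Atg7KO_0h replicate 1 (-0.25). ASAH1, the acid ceramidase, had 4.05, 3.57 and 3.60 FPKM in untreated WT cells, 3.04, 3.04 and 3.33 in treated WT cells, 5.46, 4.46 and 4.63 in untreated Atg7KO cells and 3.38, 3.27 and 2.92 in treated Atg7KO cells. Treated libraries were below untreated libraries in both lines, and the 2 treated groups overlapped. ASAH1 fell with H2O2 in Atg7KO cells (log2 -0.61, SE 0.11, adjusted p = 0.0048; -0.52 and still called without that library) and in WT cells (log2 -0.26, adjusted p = 3.2e-04). In Atg7KO cells the LIPA call was lost with the replicate block and without Atg7KO_0h replicate 2 (-0.55) or 3 (-0.54) or Atg7KO_12h replicate 1 (-0.57), 2 (-0.52) or 3 (-0.59). The ASAH1 call was lost with a correction for gene length and without Atg7KO_0h replicate 3 (-0.64) or Atg7KO_12h replicate 1 (-0.65), 2 (-0.62) or 3 (-0.54). SMPD1, the acid sphingomyelinase, was higher in treated Atg7KO than treated WT cells (0.27; not called with all 12 libraries in a single fit), and PSAP passed in none of the 5 comparisons.

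The V-ATPase genes moved in both directions. ATP6V1D, a subunit of the central stalk that turns as the pump works, had 48.0, 43.2 and 47.1 FPKM in untreated WT cells, 65.3, 67.7 and 71.4 in treated WT cells, 88.2, 55.3 and 54.2 in untreated Atg7KO cells and 108, 107 and 109 in treated Atg7KO cells. Treated Atg7KO libraries were above all others, untreated WT libraries below all others, and untreated Atg7KO replicate 1 was far above its group mates. ATP6V1D rose with H2O2 in WT cells (log2 0.56, SE 0.05, adjusted p = 5.0e-15) and was higher in treated Atg7KO than treated WT cells (log2 0.66, SE 0.04, adjusted p = 1.9e-16). Its response in Atg7KO cells was 0.71 (adjusted p = 0.022, not passed). That response was called as higher with all 12 libraries in a single fit (0.71) and without replicate 1 (0.97). The difference between responses was 0.15 (adjusted p = 0.6), and 0.42 and called without replicate 1. Of its exon bases 6.33% are shared with EIF2S1.

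ATP6V1A, the catalytic subunit that splits ATP, was the other member whose responses differed between the lines. It had 14.9, 13.9 and 13.1 FPKM in untreated WT cells, 7.36, 8.45 and 9.58 in treated WT cells, 11.8, 9.78 and 9.17 in untreated Atg7KO cells and 10.3, 10.9 and 10.3 in treated Atg7KO cells. Untreated WT libraries were the highest and treated WT libraries lay below all treated Atg7KO libraries, while the 2 Atg7KO groups overlapped. ATP6V1A fell with H2O2 in WT cells (log2 -0.73, SE 0.07, adjusted p = 3.5e-10) and stood at 0.03 in Atg7KO cells (adjusted p = 0.83; 0.14 and not called without Atg7KO_0h replicate 1). The responses differed by 0.76 (SE 0.16, adjusted p = 0.0038), and by 0.88, also called, without Atg7KO_0h replicate 1. That call was lost without WT_0h replicate 1 (0.72) or 2 (0.77), WT_12h replicate 1 (0.67) or 2 (0.76), or Atg7KO_12h replicate 1 (0.78) or 2 (0.74). Between treated cells ATP6V1A was higher in Atg7KO cells (0.31, adjusted p = 3.7e-04), a call lost with all 12 libraries in a single fit. Between untreated cells it stood at -0.45 (adjusted p = 0.041, not passed). There it was called as lower with all 12 libraries in a single fit and without replicate 1 (-0.55).

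ATP6V0A1, which holds part of the path of the protons through the membrane, had 3.46, 3.51 and 3.56 FPKM in untreated WT cells, 2.13, 2.29 and 2.11 in treated WT cells, 1.52, 2.30 and 2.19 in untreated Atg7KO cells and 1.56, 1.37 and 1.56 in treated Atg7KO cells. Untreated WT libraries were the highest, treated Atg7KO libraries were below treated WT libraries, and the 2 Atg7KO groups overlapped through replicate 1. ATP6V0A1 fell with H2O2 in WT cells (log2 -0.70, SE 0.07, adjusted p = 9.9e-12; -0.44 with a correction for gene length) and was lower in treated Atg7KO than treated WT cells (log2 -0.55, SE 0.09, adjusted p = 2.8e-06; -0.35 with limma on log2(FPKM + 1)). Between untreated cells it stood at -0.81 (adjusted p = 0.016, not passed). There it was called as lower with all 12 libraries in a single fit and without replicate 1 (-0.64). ATP6V0E1, a small subunit of the membrane sector, had 81.7, 71.3 and 78.6 FPKM in untreated WT cells and 101, 101 and 106 in treated WT cells, and ATP6V1B2, a subunit of the head that binds ATP, had 14.8, 14.2 and 14.3 and 17.4, 17.4 and 17.3. For both genes all treated libraries were above all untreated ones. ATP6V0E1 rose in WT cells (log2 0.41, SE 0.05, adjusted p = 4.2e-10; 0.21 with a correction for gene length, and not called with all 12 libraries in a single fit), as did ATP6V1B2 (log2 0.26, SE 0.05, adjusted p = 4.3e-06; 0.43 with that correction). Of the 9 genes, 3 rose and 3 fell with H2O2 in WT cells, beside 30.9 and 30.1% of all genes, the third to fall being ATP6V1C1 (-0.26). In Atg7KO cells edgeR called 0 of the 9 in either direction, beside 13.6 and 12.4% of all genes. At an unadjusted p under 0.05, 2 were higher and 1 lower, beside 25.2 and 26.2%. DESeq2 called 2 higher and 0 lower, beside 18.7 and 17.0%, and limma 0, beside 13.8 and 11.2%. With all 12 libraries in a single fit, ATP6V1D and ATP6V1B2 were called as higher, beside 19.6% of all genes. When Atg7KO_0h replicate 1 was left out, edgeR called 4 higher and 2 lower, beside 29.8 and 28.6%: ATP6V1D (0.97), ATP6V1H (0.40), ATP6V1B2 (0.35) and ATP6V0E1 (0.27) as higher, and ATP6V0A1 (-0.60) and ATP6AP1 (-0.13) as lower. Between treated cells 4 were higher in Atg7KO cells (ATP6V1D, ATP6V1H, ATP6V1A and ATP6V1C1) and 1 lower (ATP6V0A1), beside 27.7 and 27.9% of all genes, and the ATP6V1H and ATP6V1A calls were lost with all 12 libraries in a single fit. The FPKM of the 9 genes summed to 232 ± 10.9 in untreated WT cells, 269 ± 7.76 in treated WT cells, 266 ± 54.0 in untreated Atg7KO cells and 311 ± 4.76 in treated Atg7KO cells (mean ± SD, n = 3). In untreated Atg7KO cells the sum was 329 in replicate 1 and 236 and 234 in its group mates, whose mean was 235. The sums rest mostly on the most abundant genes. In the same order of groups, the means were 46.1, 68.2, 65.9 and 108 FPKM for ATP6V1D and 77.2, 103, 93.7 and 96.9 for ATP6V0E1. In WT cells the means of ATP6V0D1 and ATP6V1B2 also rose with H2O2, while those of ATP6AP1, ATP6V0A1, ATP6V1A, ATP6V1C1 and ATP6V1H fell. ATP6V0D1 and ATP6AP1, an accessory protein of the pump, passed in none of the 5 comparisons with all libraries. The plot of single libraries shows 8 members whose values are described above.

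**Figure D3:**
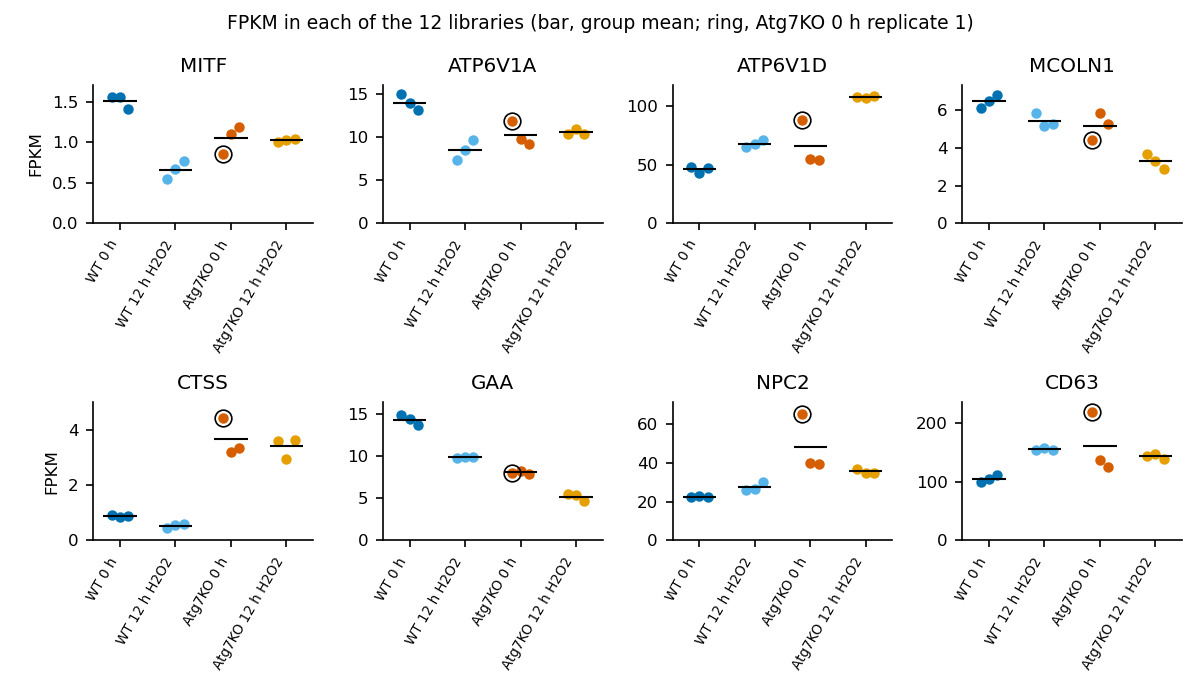
FPKM of 8 members in each of the 12 libraries (points), with a bar at each group mean and a ring around Atg7KO_0h replicate 1. By group mean, MITF and ATP6V1A are lowest in treated WT cells, ATP6V1D is highest and MCOLN1 and GAA are lowest in treated Atg7KO cells, and the ringed library is far above its group mates for ATP6V1D, NPC2 and CD63.

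The responses of the 2 lines are set against each other in the plot of H2O2 responses. The comparisons do not share libraries, and the difference between them was tested gene by gene. MITF and ATP6V1A lie above the line of equal response, near 0 in Atg7KO cells. CTSK, at -1.29 in WT cells (-0.91 and not called without WT_0h replicate 2), differed by 0.61 between the lines (adjusted p = 0.3, not passed; 0.73 and not called without Atg7KO_0h replicate 1). The 4 members that fell in both lines were GAA, LIPA, CTSA and ASAH1, with differences of -0.10, -0.21, -0.19 and -0.35 that did not pass. With Atg7KO_0h replicate 1 left out, these were -0.09, -0.24, -0.18 and -0.25, again not called, but further members were called: SCARB2 (0.33), NPC1 (0.23), LAMP2 (0.24), CTSS (0.82), ATP6V1C1 (0.30), ATP6V1D (0.42) and ATP6V1H (0.53) above 0, and MCOLN1 (-0.50), CD63 (-0.42) and NPC2 (-0.46) below 0.

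**Figure D4:**
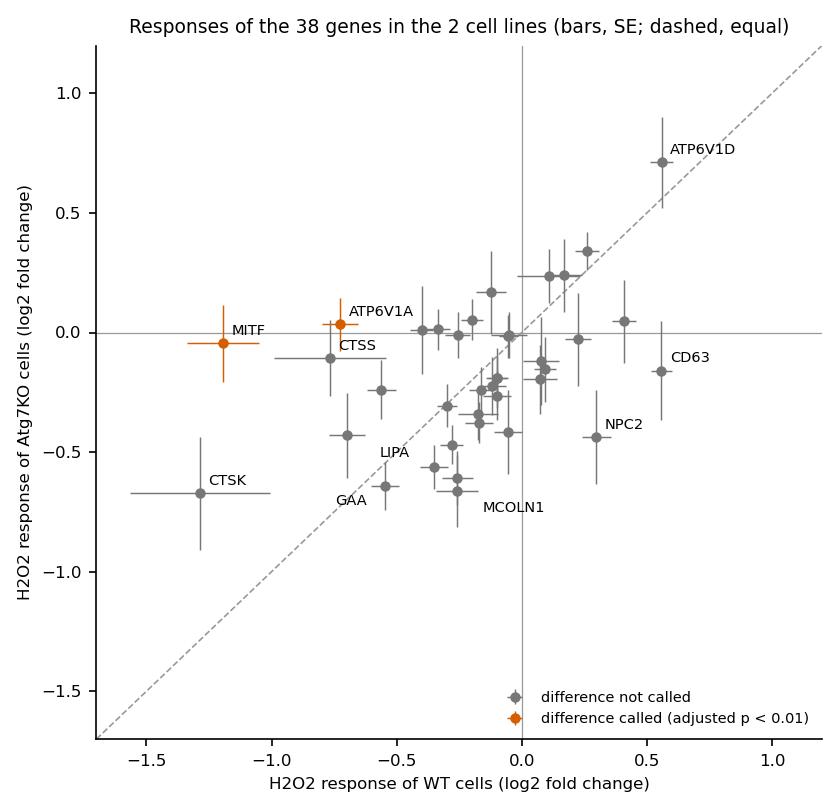
Log2 fold change with H2O2 in WT cells (x axis) and Atg7KO cells (y axis) for the 38 members, with bars of 1 SE, a dashed line of equal response, and members whose difference was called in orange. MITF lies at -1.19 and -0.05 and ATP6V1A at -0.73 and 0.03.

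The plot of untreated cells shows how much a single library weighs on the comparison of Atg7KO with WT cells. With it, CTSS and NPC2 were called as higher and GAA as lower. Without it the SE narrowed for most members, and CTSZ (0.36), TFE3 (0.40), CD63 (0.32), ASAH1 (0.29) and CTSB (0.27) were among the added calls above 0, and CTSK (-0.89), ATP6V0A1 (-0.64), ATP6V1A (-0.55), LIPA (-0.25) and CTSL (-0.23) were those below 0. CTSL stood at 0.04 with that library, on the other side of 0. These members were picked from the plot after their values were seen.

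**Figure D5:**
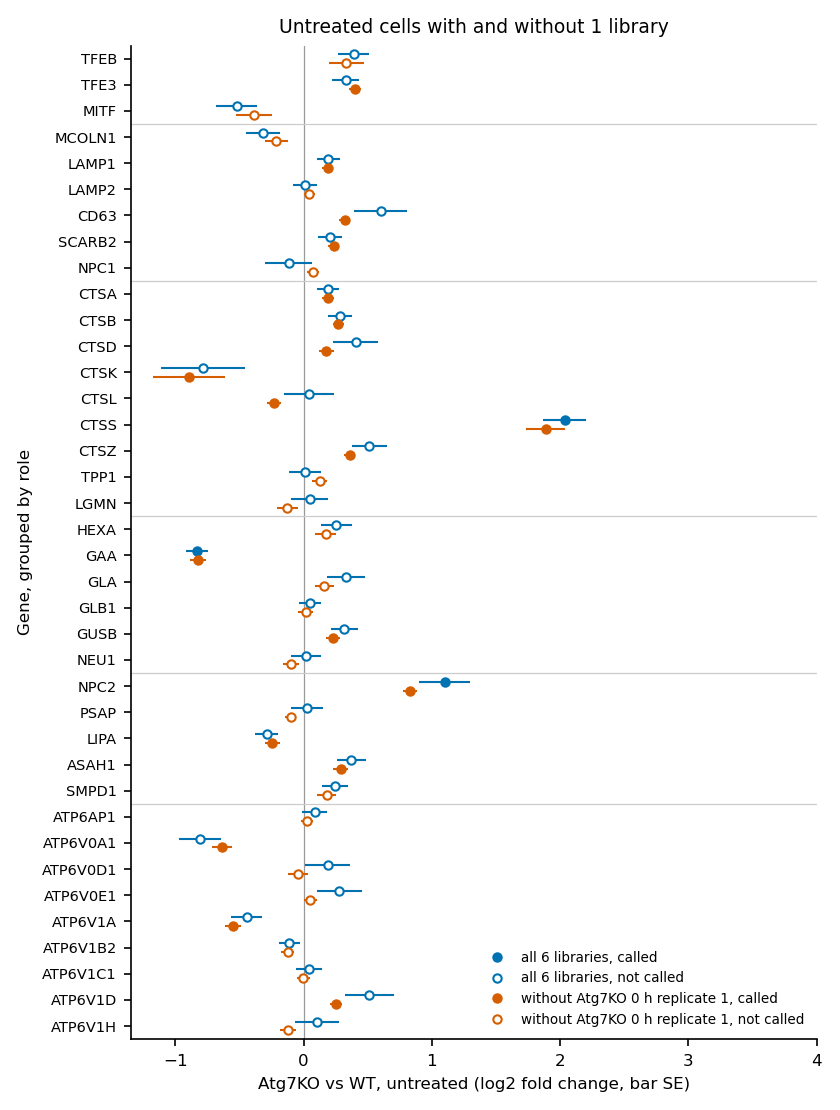
Log2 fold change of untreated Atg7KO over untreated WT cells (x axis, bars of 1 SE) for the 38 members by role, with all 6 libraries (blue) and without Atg7KO_0h replicate 1 (orange), filled where the adjusted p was under 0.01. CTSS stays near 2 either way (2.03 and 1.89), and 3 points are filled with all libraries against 19 without the ringed library of the plot of single libraries.

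Members were also set beside the 10 tested genes on each side of them on the chromosome, as a description with no test. Between treated cells, MCOLN1 was at -0.73 and its 20 neighbours had a median of -0.46, with 2 called higher and 12 lower. Counts of called neighbours stand beside 27.7% higher and 27.9% lower among all genes in this comparison. ATP6V0A1 was at -0.55 and its neighbours at a median of -0.33, with 1 higher and 14 lower. For ATP6V1D (0.66) the median was 0.46, with 12 higher and 5 lower, and for TFEB (0.51) 0.33, with 11 higher and 2 lower. These 4 members lay on the same side as the genes around them. ATP6V1A was at 0.31 among neighbours with a median of -0.31, of which 0 were called higher by edgeR and 9 lower, and CTSS was at 2.69 among neighbours with a median of 0.10. GAA, at -0.94, lay further below 0 than its neighbours' median of -0.37. Between untreated cells, ATP6V1A was on the same side as its neighbours, at -0.45 with a median of -0.49, as were ATP6V1D (0.51, median 0.56), ATP6V0A1 (-0.81, median -0.37), MCOLN1 (-0.32, median -0.36) and TFEB (0.39, median 0.07). GAA stood at -0.83 with a median of -0.02 and CTSS at 2.03 with -0.15. The medians of these 7, in the same order, were -0.43, 0.43, -0.34, -0.31, 0.07, 0.0055 and -0.08 without Atg7KO_0h replicate 1. Over all 38 members, 25 lay on the same side of 0 as their neighbours' median between treated cells and 13 on the other. Among the 13 were LIPA (-0.51, median 0.04), LAMP1 (0.22, median -0.26) and CD63 (-0.12, median 0.20). Between untreated cells 23 lay on the same side and 15 on the other, or 22 and 16 without Atg7KO_0h replicate 1. How often any tested gene lies on the side of its neighbours was not counted, so these counts show no trait of the members. The members named here were picked after their values were seen. Copy number was not measured, and its part in these values was not tested.

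The rest of the pathway was taken from a list of 127 further lysosomal genes, counted beside all genes with no test of the list; those named were chosen after their values were seen. With H2O2 in WT cells, 28 of the 114 tested rose and 52 fell, beside 30.9 and 30.1% of all genes, with a median log2 fold change of -0.23 against -0.01 for all genes. In Atg7KO cells 7 of 115 rose and 12 fell (median -0.15), beside 13.6 and 12.4%. Between untreated cells 4 of 114 were higher and 2 lower in Atg7KO cells (median 0.02), beside 4.42 and 3.28%, and between treated cells 40 of 116 were higher and 24 lower (median 0.04), beside 27.7 and 27.9%. The difference between responses was called above 0 for 6 of 116 and below 0 for 1, beside 7.02 and 7.01%. When Atg7KO_0h replicate 1 was left out, the Atg7KO response had 27 of 115 higher and 54 lower (median -0.19), beside 29.8 and 28.6%. Untreated cells then had 28 of 115 higher and 17 lower (median 0.03), beside 18.2 and 17.9%, and the difference between responses 27 of 116 above 0 and 12 below, beside 17.8 and 16.3%. All calls made with that library were kept in these 3 comparisons. By role, beside the same 30.9% higher and 30.1% lower among all genes, 8 of 20 other V-ATPase subunits and assembly factors rose with H2O2 in WT cells and 5 fell (median 0.02). For other hydrolases and activators 4 of 37 rose and 17 fell (median -0.30), for other membrane proteins and transporters 5 of 22 and 13 (median -0.40), and for genes that sort hydrolases to the lysosome 1 of 11 and 8 (median -0.40). For the control of MiT/TFE factors at the lysosome 5 of 17 rose and 7 fell (median -0.04), and for cathepsin inhibitors and sensors of lysosome damage 5 of 7 rose and 2 fell (median 0.49). Among the sorting genes, LRP1, a receptor that takes up hydrolases and other ligands, fell (-1.52, adjusted p = 3.7e-29), and M6PR, a mannose 6-phosphate receptor, rose (0.47, adjusted p = 3.4e-11). Among those that control MiT/TFE factors, MTOR, the kinase that holds TFEB in the cytosol, fell (-0.91, adjusted p = 3.8e-21), and FLCN, the gene of folliculin, rose (0.41, adjusted p = 1.2e-06). By role in Atg7KO cells, edgeR called 0 of 20 other V-ATPase genes higher and 2 lower (median 0.19), beside 13.6 and 12.4%. The other roles, in the order above, had 2 and 4 of 37 (-0.27), 3 and 3 of 23 (-0.22), 0 and 1 of 11 (-0.18), 2 and 1 of 18 (-0.0015) and 0 and 1 of 6 (-0.12). Between treated cells 1 of 7 inhibitors and sensors was higher and 4 lower (-0.21), beside 27.7 and 27.9%, while each other role had more calls higher than lower.

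The 7 genes of that list with a called difference between responses are given with the value without Atg7KO_0h replicate 1 after the adjusted p. The gene below 0 was CTSW, a cathepsin of cytotoxic lymphocytes, which went from 0.837 to 3.23 FPKM with H2O2 in WT cells and from 2.13 to 1.92 in Atg7KO cells (-2.08, adjusted p = 5.2e-04; -1.93). Above 0, LAPTM5, a lysosomal membrane protein of blood cells, went from 0.560 to 1.77 FPKM in WT cells and from 1.07 to 10.7 in Atg7KO cells (1.66, adjusted p = 0.0014; 1.78). GM2A, which presents the ganglioside GM2 to hexosaminidase, had group means of 12.8 FPKM in untreated WT cells, 12.1 in treated WT cells, 13.8 in untreated Atg7KO cells and 25.1 in treated Atg7KO cells (0.94, adjusted p = 9.2e-05; 0.92). FNIP2, a partner of folliculin in the control of TFEB and TFE3 at the lysosome, differed by 1.35, adjusted p = 6.6e-04 (1.16), and rose in Atg7KO cells (1.59, adjusted p = 7.9e-04; 1.40). The calls of these 4 genes were kept with each of the 12 libraries left out in turn. RRAGD, a GTPase that ties TFEB to the lysosome, differed by 0.77, adjusted p = 0.0045 (0.88), a call lost without WT_0h replicate 2 or 3, WT_12h replicate 1 or 2, or Atg7KO_12h replicate 2 or 3 (0.71 to 0.77). DMXL1 and WDR7, which help the V-ATPase assemble, differed by 1.16, adjusted p = 0.0052 (0.92) and 0.90, adjusted p = 0.0045 (0.73). The DMXL1 call was lost without any 1 of the 6 WT or the 3 treated Atg7KO libraries (1.13 to 1.21), and the WDR7 call without any 1 of these except WT_12h replicate 3 (0.85 to 0.93). FUCA1, the lysosomal fucosidase, rose in both lines, from 22.9 to 56.2 FPKM in WT cells (1.29, adjusted p = 2.4e-25) and from 33.7 to 113 in Atg7KO cells (1.74, adjusted p = 1.2e-04; 1.87 without Atg7KO_0h replicate 1). Its responses differed by 0.45, adjusted p = 0.032, not passed, and by 0.59, called, without that library.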

How the data were processed

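RNA from HLE-B3 cells was sequenced in 12 libraries of 4 groups, grouped by the genotype, H2O2 and time of the labels, with totals of 15602183 to 17659496 counts. By the submitters' processing notes, reads were aligned with HISAT2 2.0.5 and counted per gene with featureCounts 1.5.0-p3; the strand setting is not given in the sources used here, so reads from exon bases shared with genes on the other strand cannot be assigned here. The deposited files hold the count of each gene in each library as the authors made it, its gene length, and FPKM values the authors computed from both. In each library the deposited FPKM equalled the count over gene length and total count up to 1 factor, from 0.949 to 1.02. The genes had the coordinates of GENCODE release 29, and the members' lengths equalled their merged exons there.

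Tests used edgeR 4.0.16 in R 4.3.3: TMM scaling, filterByExpr with a minimum count of 10, a robust quasi-likelihood fit of the 6 libraries compared, or of all 12 with an interaction term for the difference between responses, and Benjamini-Hochberg adjustment over all genes tested, with calls at an adjusted p under 0.01. Alternatives were DESeq2 1.42.0, RLE and upper quartile scaling, no filter, at least 10 counts in every library, all 12 libraries in a single fit, the replicate number as a block, limma 3.58.1 on log2(FPKM + 1) and log2(FPKM + 0.1), an offset for gene length (lowess, span 0.3), each library left out, and TMM-scaled counts per kilobase for levels. The procedure was tested on simulated data. Changes of log2 1 were called in 75% of cases in the WT response and 82% between treated cells. The figures were 31% in the Atg7KO response, 30% between untreated cells and 21% for the difference between responses. Changes of log2 0.5 were called in 53, 59, 0, 1 and 0% in the same order, with 0 to 3 false calls. The members and lists, including the 127 further lysosomal genes and the lists of lens epithelium, lens fibre, fibroblast, melanocyte, macrophage and osteoclast markers, were chosen with earlier results of these data known. ACP5 is in both the wider and the osteoclast list. Full statistics are given for TFEB, TFE3, MITF, MCOLN1 and ATG7 and for up to 5 called members with no overlap at each end of each comparison, ranked by log2 fold change, and for the called differences between responses; other members were named after their values were seen, to complete a role. Promoters came from RefSeq (GRCh38.p14), and motifs were counted on both strands. Samples of no group were not present, and no library was left out of the main values.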

Additional observations from a re-analysis of the deposited data

Results flagged for a closer look

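MITF responded to H2O2 differently in the 2 cell lines by the edgeR test of the difference between responses, which was 1.15 on the log2 scale (Atg7KO minus WT, SE 0.22, adjusted p = 0.0023). All 3 treated WT libraries were below all 3 untreated WT libraries, and the 2 Atg7KO groups overlapped. The same test called ATP6V1A, with a difference of 0.76 (SE 0.16, adjusted p = 0.0038), and here too the WT groups did not overlap and the Atg7KO groups did. Without Atg7KO_0h replicate 1 the differences were 1.03 and 0.88, both called. The ATP6V1A call was lost without WT_0h replicate 1 (0.72) or 2 (0.77), WT_12h replicate 1 (0.67) or 2 (0.76), or Atg7KO_12h replicate 1 (0.78) or 2 (0.74).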

How the results depend on the processing

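Of 730 values under an alternative, for the genes with full statistics in the comparisons that name them, 647 kept their direction and their side of the threshold, 71 kept the direction but lost the call, 11 gained it and 1 reversed. The 647 include values of genes that were not called in the main test and stayed uncalled. With each library left out of the Atg7KO response, 32 values stayed the same, 19 lost the call, 2 gained it and 1 reversed. That reversal was the MITF response in Atg7KO cells, -0.05, which ranged from -0.18 without Atg7KO_0h replicate 1 to 0.056 without Atg7KO_0h replicate 3. Outside these, without Atg7KO_0h replicate 1, members changed sign in the Atg7KO response (9 of 38), between untreated cells (8) and in the difference between responses (5). Among them were CD63 (-0.16 to 0.12, called) and CTSS (-0.11 to 0.04) in the Atg7KO response and CTSL between untreated cells (0.04 to -0.23, called). Counts of called members moved by more than 1.5 times as follows, and where fewer libraries or other genes were not the change itself the cause was not tested.

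With DESeq2, the Atg7KO response gave 2 higher and 7 lower, beside 18.7 and 17.0% of all genes. Untreated cells gave 4 higher and 2 lower, beside 8.78 and 7.57%, and the difference between responses 1 lower, beside 11.3%. Upper quartile scaling left 1 higher in untreated cells. Without a filter, the Atg7KO response gave 1 higher, untreated cells 2 lower and the difference between responses 2 lower. With at least 10 counts in every library, the Atg7KO response gave 1 higher and untreated cells 1 higher. With all 12 libraries in a single fit, the WT response gave 3 higher and 11 lower, the Atg7KO response 2 higher and 7 lower, untreated cells 6 higher and 4 lower, and treated cells 8 higher and 4 lower. The shares of all genes in that fit, in the same order, were 20.7 and 19.8%, 19.6 and 19.1%, 9.88 and 8.83%, and 14.0 and 15.0%. The calls gained there in the Atg7KO response were ATP6V1D and ATP6V1B2 as higher and MCOLN1, CTSB and GLB1 as lower. Between untreated cells they were TFE3, CTSB, CTSZ and ASAH1 as higher and LIPA, ATP6V0A1 and ATP6V1A as lower. limma left 1 higher in untreated cells at both pseudocounts, beside 3.85% of all genes on log2(FPKM + 1). The correction for gene length gave 1 higher in the Atg7KO response and 2 lower in untreated cells. No share of all genes is given here for upper quartile scaling, the changed filters, the gene length correction or the replicate block. The counts of members under those settings therefore cannot be set beside all genes.

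With the replicate block, the Atg7KO response gave 2 lower and untreated cells 1 higher. The replicates were not paired by any sign in the data: libraries of the same number in different groups correlated at -0.0702 to 0.0975 after their group means were removed, and the own number was the closest in 12 of 36 cases, the share that chance gives.

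Leaving out each library in turn, the Atg7KO response gave 0 to 7 higher and 0 to 16 lower, untreated cells 1 to 13 higher and 0 to 6 lower, and the difference between responses 1 to 9 above 0 and 0 to 3 below. The highest of each range came without Atg7KO_0h replicate 1. There the shares of all genes were 29.8 and 28.6%, 18.2 and 17.9%, and 17.8 and 16.3% in the same order. No such share is given for the other libraries left out.

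No scaling moved the median of all genes by more than 0.1 on the log2 scale. Counts under 100 limit CTSK in every library, CTSS in the WT libraries and MITF in the treated WT libraries (66 to 95), where small differences may have been missed. With 3 libraries a group, a missing call does not show that values did not differ. Shared exon bases limit CTSD and CTSA most, and then HEXA, TPP1, GLB1 and CD63, with shares of 9% or more. FPKM and TMM-scaled counts per kilobase ranked the members alike in untreated WT cells, with 0 ranks differing.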
